A study of Zea mays with 36 samples.

Results

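KNOX genes are a plant family of homeobox transcription factors named after maize knotted1. The members described here are kn1, knox3, knox7, knox8 and lg3, chosen by name: every spot whose platform gene symbol or current synonym was one of these was taken. That gave 18 of 35200 spots. The SAM1 array held 6 of them among 19200 (3 for kn1, 2 for knox7 and 1 for lg3), and the SAM3 array held 12 among 16000 (3 for kn1, 1 for knox3, 4 for knox7, 2 for knox8 and 2 for lg3). The current gene table has no entry for the identifier behind the knox3 spot and gives the synonym knox3 to another identifier, whose gene is separated from kn1 by 1 annotated gene. The knox3 values below are therefore those of a spot annotated as knox3. No spot on either array was named for another KNOX gene or for a BELL homeobox gene, the family whose proteins pair with KNOX proteins.

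Class I KNOX proteins hold cells of the shoot apical meristem in an undifferentiated state, and kn1 is the founding example in maize. Their genes are switched off where a leaf is about to form, and the MYB factor rough sheath2 (rs2) keeps them off in the growing leaf. Dominant alleles that leave kn1 or lg3 (liguleless3) on in leaves disturb the boundary between blade and sheath. kn1, knox3, knox8 and lg3 belong to class I, whereas knox7 belongs to class II, whose members are also active in tissues outside the meristem. One way in which KNOX proteins act is by lowering gibberellin and raising cytokinin in the meristem.

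The series compared microdissected meristem cells of rgd2-R mutant maize with those of non-mutant maize. The gene mutated in rgd2-R, ragged seedling2, makes an ARGONAUTE7-like protein that acts through small RNAs in patterning the upper and lower sides of a leaf. No spot was named for this gene, so the mutation itself was not checked. The rgd2-R allele had been crossed into the inbred line Mo17 for 5 generations, both groups were taken at 14 days after germination, and their RNA was amplified in 2 rounds. Each array design carried 6 biological replicates, each with both genotypes on one array. rgd2-R was labelled with Cy3 in replicates 1 to 3 and with Cy5 in replicates 4 to 6. The labels do not say how many apices a replicate held or from which families the non-mutant plants came.

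Every hybridisation came with a low, a mid and a high reading. Per reading, 7633 to 14503 SAM1 spots and 3407 to 13218 SAM3 spots lay more than 100 intensity units above background in both dyes. The readings of one replicate correlated at 0.42 to 0.89 in the authors' ratios, except in SAM3 replicate 3, whose low and mid readings ran with each other (r = 0.93) and against the high reading (r = -0.93 for both). Its low and mid readings were brighter in Cy5 and its high reading in Cy3, and every other SAM3 reading was brighter in Cy3. With the dyes as labelled, the high reading correlated with replicates 1, 2, 4, 5 and 6 at 0.64, -0.35, 0.16, -0.19 and 0.25, and the low reading at -0.64, 0.35, -0.15, 0.14 and -0.24. The high reading thus ran with replicates 1, 4 and 6 and the other readings with replicates 2 and 5. Replicate 2 in turn ran against replicates 1, 4 and 6 in each reading (r = -0.31 to -0.13). With replicate 5 it correlated at 0.02 to 0.05. The direction of SAM3 replicate 3 is not settled by these values. Its as-labelled value averages readings that run against each other, so they partly cancel. The KNOX gene estimates on SAM3 are given as labelled, with its readings turned and without it, and other SAM3 values are as labelled unless stated.

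All ratios are on the log2 scale with rgd2-R over non-mutant, from background-corrected, loess-normalized intensities averaged over the readings of a replicate. No KNOX spot passed the threshold in limma, an adjusted p (Benjamini-Hochberg) below 0.05. The spots that passed were 0% of the 19200 SAM1 spots and 0% of the 16000 SAM3 spots. At an unadjusted p under 0.05, limma gave 1 of 6 KNOX spots on SAM1, against 14.8% of all SAM1 spots, and 1 of 12 on SAM3, against 6.58% of all SAM3 spots. As labelled, neither count stands apart from its background. With the spots of a gene averaged, the median ratio was 0.05 over the 3 KNOX genes of SAM1 and 0.00 over the 5 of SAM3, beside 0.0030 and -0.0028 over all genes and unnamed spots of the 2 arrays. The plot of ratios by replicate shows the scatter behind these values.

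**Figure D1:**
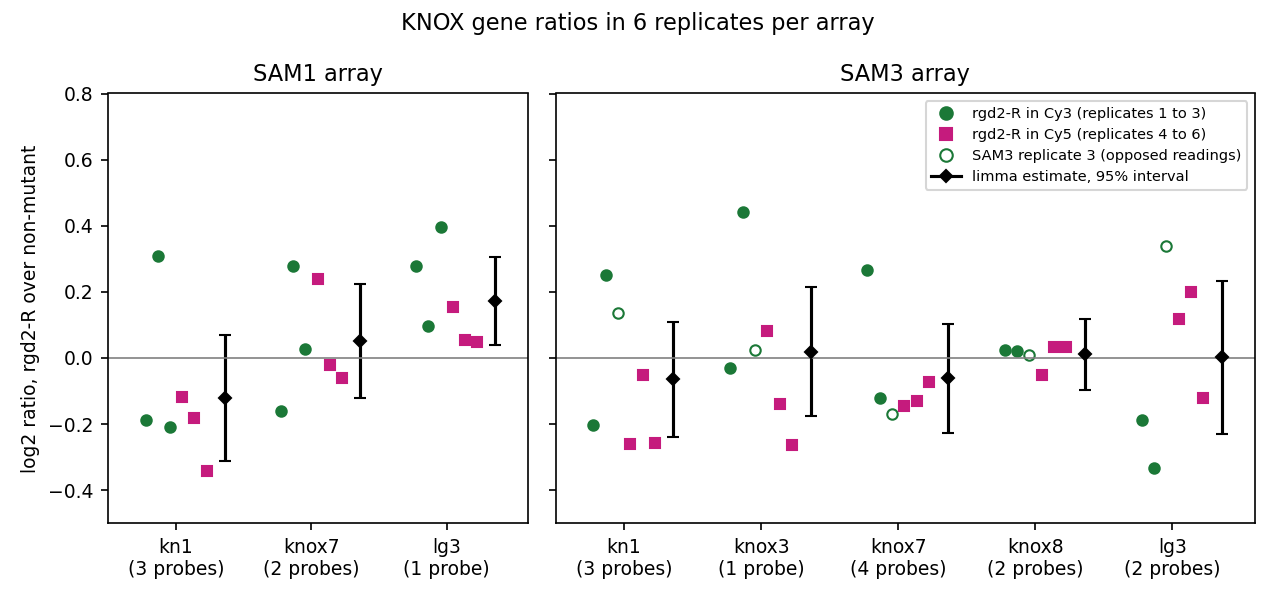
Log2 ratio of rgd2-R over non-mutant (vertical axis) for each KNOX gene on the SAM1 and SAM3 arrays. Circles are replicates with rgd2-R in Cy3, squares those with rgd2-R in Cy5, open circles SAM3 replicate 3, and diamonds with bars the limma estimate with its 95% interval. Of the 8 intervals, the one of lg3 on SAM1 (0.04 to 0.30) does not include 0.

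The spots differed in how far they stood above background, and kn1 had spots at both ends. On SAM1, kn1 spot 4915 had a median signal of 37.9 times the local background in the non-mutant channel and 39.7 times in the rgd2-R channel. On SAM3, kn1 spot 14467 had medians of 34.9 and 36.1 times. The knox8 spots had a median of 1.49 times background in non-mutant and 1.47 times in rgd2-R, with 9 of 72 channel readings at or below background. kn1 spot 12088 lay at 1.19 and 1.38 times, with 8 of 36 channel readings at or below background. A ratio near 0 from such spots says little about their genes. No spot was left out for low signal. Brightness also depends on the spotted probe, so these values do not rank the genes by expression.

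**Figure D2:**
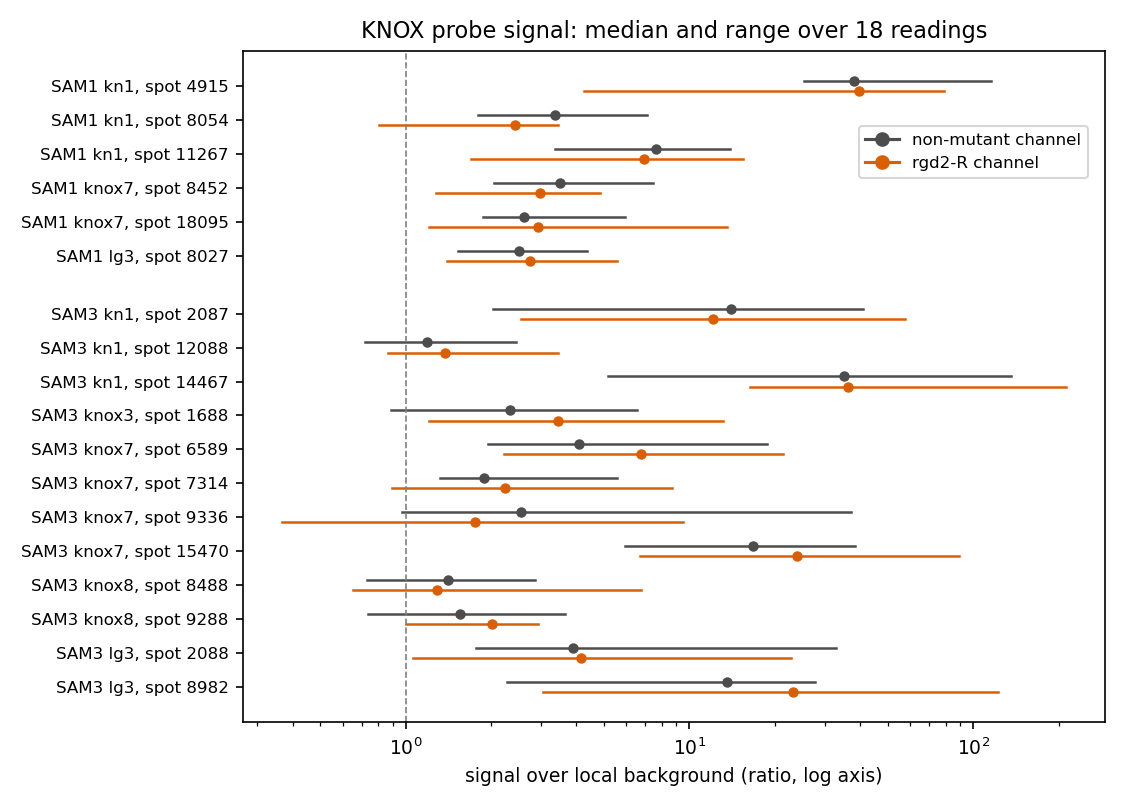
Signal over local background (horizontal log axis) of each KNOX spot in the non-mutant and rgd2-R channels. Points are medians and lines the range over 18 readings, and the dashed line marks signal equal to background. kn1 spot 12088, knox7 spot 9336 and knox8 spot 8488 reach below it in both channels, while kn1 spots 4915 and 14467 stay above it throughout.

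kn1, which marks and maintains the meristem, did not pass the adjusted limma test on either array. On SAM1 its normalized log2 level, averaged over 3 spots, was 10.11 ± 0.13 (SD, n = 6) in non-mutant and 9.99 ± 0.14 in rgd2-R. The levels ranged from 9.92 to 10.22 and from 9.86 to 10.23, so the groups overlapped. Both genotypes of a replicate shared an array, so they are compared by the ratios within replicates and not by this overlap. The ratios of replicates 1 to 6 were -0.19, 0.31, -0.21, -0.12, -0.18 and -0.34. Thus 5 of 6 replicates lay below 0, and replicate 2 lay above. The estimate was -0.12 (SE 0.08, 95% interval -0.31 to 0.07, adjusted p = 0.565 in limma), or 0.919-fold with an interval of 0.806 to 1.05. Without replicate 2 it was -0.21 (adjusted p = 0.220), and with plain background subtraction -0.32 (SE 0.21, adjusted p = 0.649). In microdissected tissue, fewer cells that express a gene and less RNA per cell cannot be told apart.

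On SAM3 the kn1 level was 9.67 ± 0.14 (SD, n = 6) in non-mutant and 9.61 ± 0.16 in rgd2-R, again with overlap. The ratios of replicates 1 to 6 were -0.20, 0.25, 0.13, -0.26, -0.05 and -0.26, with an estimate of -0.06 (SE 0.07, 95% interval -0.24 to 0.11, adjusted p = 0.955 in limma). Replicate 3 moved from 0.13 to -0.40 when its low and mid readings were turned, and 5 of 6 replicates then lay below 0, as on SAM1. The estimate was then -0.15 (SE 0.10, adjusted p = 0.678), -0.02 with the high reading turned instead, and -0.08 without replicate 3. Plain background subtraction gave -0.21 (SE 0.26) and the authors' deposited table gave -0.19 (SE 0.24). On both arrays replicate 2 lay above 0 and replicates 1, 4, 5 and 6 below. Whether equal numbers on the 2 arrays stand for the same RNA is not stated. Over 415 genes named on both arrays, same-numbered replicates correlated at -0.13 to 0.30.

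The kn1 spots of one array did not move together. On SAM1, spot 8054 had a ratio of -0.20 (SE 0.10), spot 11267 of -0.10 (SE 0.13) and spot 4915, the brightest, of -0.06 (SE 0.08), so all were below 0. On SAM3, spot 2087 gave -1.06, 0.41, 0.68, -0.54, -0.36 and -1.11 in replicates 1 to 6, with an estimate of -0.33 (SE 0.23, adjusted p = 0.899 in limma). Spot 14467 gave 0.49, 0.26, -0.29, -0.24, 0.18 and 0.29, with an estimate of 0.12 (SE 0.12, adjusted p = 0.950). Spot 2087 therefore lay below spot 14467 in 4 of 6 replicates, with a difference of -1.55 in replicate 1 and -1.40 in replicate 6, although both are annotated as kn1 and both were well above background.

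In replicate 3 the sides depended on the reading. Spot 2087 read 2.22, 2.05 and -2.23 at the low, mid and high settings of that replicate, and spot 14467 read -0.81, -1.07 and 1.01. Each setting therefore showed the 2 kn1 spots on opposite sides of 0. With the low and mid readings turned, the estimates were -0.80 (SE 0.32, unadjusted p = 0.0438, adjusted p = 0.673 in limma) for spot 2087 and 0.33 (SE 0.12, unadjusted p = 0.0302, adjusted p = 0.664) for spot 14467. With that turn, 3 of 12 KNOX spots had an unadjusted p under 0.05 (the other is lg3 spot 2088), against 7.41% of all SAM3 spots, and 0 passed after adjustment. Without replicate 3 the estimates were -0.50 and 0.23, with unadjusted p of 0.0769 and 0.0612, where 1 of 12 KNOX spots (knox7 spot 9336) and 6.35% of all SAM3 spots fell under 0.05. The mean of -0.06 for kn1 on SAM3 thus averages spots of opposite sign.

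**Figure D3:**
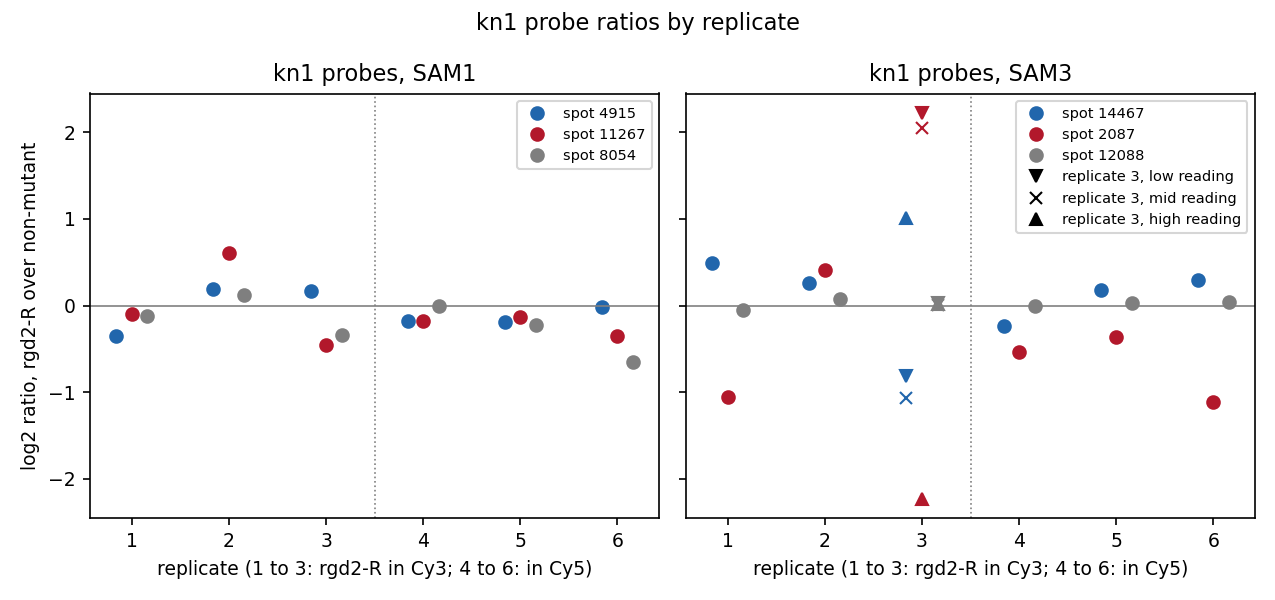
Log2 ratio of rgd2-R over non-mutant (vertical axis) of each kn1 spot in replicates 1 to 6 of SAM1 and SAM3. On SAM3 the low, mid and high readings of replicate 3 are drawn apart. Spot 2087 lies at 2.22 and 2.05 in the low and mid readings and at -2.23 in the high reading, and spot 14467 runs the opposite way.

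knox3, a class I gene, had 1 spot annotated to it, on SAM3. Its level was 8.03 ± 0.31 (SD, n = 6) in non-mutant and 8.05 ± 0.19 in rgd2-R, with 4 of 36 channel readings at or below background. The ratios were -0.03, 0.44, 0.02, 0.08, -0.14 and -0.26, split 3 to 3 around 0. The estimate was 0.02 (SE 0.08, 95% interval -0.18 to 0.21, adjusted p = 0.995 in limma). It was -0.05 with the low and mid readings of replicate 3 turned, 0.08 with the high reading turned and 0.05 without that replicate. Plain background subtraction gave 0.87 with an SE of 0.76 and the authors' deposited table gave 0.97 with an SE of 0.76, which shows how loosely this dim spot was measured.

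knox8, a class I gene active in meristems, showed the smallest scatter among the KNOX genes of SAM3, with ratios of 0.02, 0.02, 0.01, -0.05, 0.03 and 0.03. The estimate was 0.01 (SE 0.05, 95% interval -0.10 to 0.12, adjusted p = 0.994 in limma). It was 0.03 with the low and mid readings of replicate 3 turned, -0.01 with the high reading turned and 0.01 without that replicate. Its level was 7.60 ± 0.06 (SD, n = 6) in non-mutant and 7.61 ± 0.06 in rgd2-R. Both spots lay near background, and the narrow range held for the reported processing only. The SD over replicates was 0.03 as reported, 0.15 with no background correction and 0.65 with plain background subtraction. Plain subtraction gave an estimate of 0.10 (SE 0.24) and the authors' deposited table gave 0.10 (SE 0.24), so this gene was loosely measured.

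lg3, the class I gene whose dominant allele acts in leaves, was the only member gene with all 6 replicates on one side of 0 on either array with the dyes as labelled. On SAM1 its level was 8.43 ± 0.12 (SD, n = 6) in non-mutant and 8.61 ± 0.24 in rgd2-R. Its 1 spot there was dim, at a median of 2.52 times background in non-mutant and 2.73 times in rgd2-R. Of the 36 channel readings of this spot, 0 lay at or below background. The lg3 ratios in replicates 1 to 6 were 0.28, 0.10, 0.40, 0.16, 0.05 and 0.05. All lay above 0, which was so for 2.92% of the 583 named genes of SAM1 (and for 1.67% of the 598 of SAM3). A further 3.09% of the named genes of SAM1 and 1.34% of those of SAM3 had all 6 replicates below 0. The estimate was 0.17 (SE 0.06, 95% interval 0.04 to 0.30, unadjusted p = 0.0188, adjusted p = 0.244 in limma), or 1.13-fold with an interval of 1.03 to 1.23. It did not pass after adjustment. The mean was 0.26 where rgd2-R carried Cy3 and 0.09 where it carried Cy5. Plain background subtraction gave 0.47 (SE 0.18) and the authors' deposited table gave 0.32 (SE 0.10), with all 6 replicates above 0 in both and adjusted p of 0.530 and 0.281. Both of these estimates lay above the upper end of the reported interval, which holds for the reported processing only. With no background correction (0.26), the low reading only (0.14) or the high reading only (0.21), 5 of 6 replicates lay above 0.

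SAM1 replicate 3 held the highest lg3 ratio and also stood apart in genes of leaf primordia. The 5 named leaf primordium markers of SAM1 (rs2, ns2, yab9, yab10 and yab14) averaged 1.65 in replicate 3 and between -0.23 and 0.36 in the others. Their summed level ranged from 3085 to 5587 in non-mutant and from 3250 to 17833 in rgd2-R, and 0 of the 5 were at or below background. All 5 estimates were above 0 and 0 passed the adjusted test. Replicate 3 was the highest for each marker, at 1.55 for rs2, 1.87 for ns2, 1.85 for yab9, 1.55 for yab10 and 1.45 for yab14. The replicates above 0 were 5 of 6 for rs2, 4 of 6 for yab9 and yab10, 3 of 6 for ns2 and 2 of 6 for yab14. The 5 positive signs therefore lean on replicate 3, and marker estimates without it are not given here. Without replicate 3 the lg3 estimate was 0.14 (SE 0.06, adjusted p = 0.382) with 5 of 5 replicates above 0. Without it kn1 was at -0.08. Whether the leaf markers of this replicate bear on the lg3 ratio was not tested.

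On SAM3, lg3 had 2 spots, whose agreement depended on replicate 3. The ratios were -0.19, -0.33, 0.34, 0.12, 0.20 and -0.12, with an estimate of 0.00 (SE 0.10, 95% interval -0.23 to 0.23, adjusted p = 1.00 in limma). The level was 9.03 ± 0.28 (SD, n = 6) in non-mutant and 9.04 ± 0.31 in rgd2-R. As labelled, spot 8982 averaged 0.13 and spot 2088 -0.12, on opposite sides of 0. In replicate 3, spot 8982 read 1.39 and 1.89 at the low and mid settings and -1.53 at the high one. With the low and mid readings turned, the lg3 ratio of replicate 3 went from 0.34 to -1.03 and the estimate to -0.23 (SE 0.12, adjusted p = 0.678). Both spots then lay below 0, spot 8982 at -0.24 (SE 0.18) and spot 2088 at -0.22 (SE 0.09, unadjusted p = 0.0481, adjusted p = 0.673). The gene estimate was 0.12 with the high reading turned. Without the replicate it was -0.10, with the spots at -0.020 and -0.18. The SAM1 and SAM3 values for lg3 came from different spots and were not tested against each other.

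knox7, the class II gene, had 6 spots and no common direction among them. On SAM1 its level was 8.76 ± 0.19 (SD, n = 6) in non-mutant and 8.81 ± 0.31 in rgd2-R. The ratios were -0.16, 0.28, 0.03, 0.24, -0.02 and -0.06, split 3 to 3, and the estimate was 0.05 (SE 0.07, adjusted p = 0.827 in limma). Spot 8452 averaged -0.08 and spot 18095 0.18. On SAM3 the ratios were 0.27, -0.12, -0.17, -0.14, -0.13 and -0.07. There, 5 of 6 replicates lay below 0 and replicate 1 above. The estimate was -0.06 (SE 0.07, 95% interval -0.23 to 0.10, adjusted p = 0.955), 0.04 with the low and mid readings of replicate 3 turned, -0.10 with the high reading turned and -0.02 without replicate 3. Plain background subtraction gave -0.51 (SE 0.22, unadjusted p = 0.0580, adjusted p = 0.982) and the authors' deposited table gave -0.47 (SE 0.24, adjusted p = 0.986). The SAM3 level was 8.90 ± 0.25 in non-mutant and 8.84 ± 0.25 in rgd2-R.

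Some knox7 spots carry the same clone, which allows a check within the gene. SAM3 spots 6589 and 9336 share one. Spot 9336 stood near background, at a median of 2.55 times in non-mutant and 1.76 times in rgd2-R, with 3 of 36 channel readings at or below it. It had ratios of 0.10, -0.34, -0.43, -0.45, -0.44 and -0.23 and an estimate of -0.30 (SE 0.08, unadjusted p = 0.00909, adjusted p = 0.601 in limma), the one KNOX spot of SAM3 under an unadjusted 0.05. Its duplicate, spot 6589, had ratios of 0.29, 0.08, -0.01, 0.17, 0.03 and -0.24 and an estimate of 0.05 (SE 0.07, adjusted p = 0.966). Spot 6589 was higher than spot 9336 in 5 of 6 replicates, and the low value of spot 9336 is therefore not seen on its duplicate. With the low and mid readings of replicate 3 turned, spot 9336 was at -0.08 (adjusted p = 0.873). SAM1 spot 18095 and SAM3 spot 7314 also share a clone, with estimates of 0.18 (SE 0.10) and -0.05 (SE 0.05).

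**Figure D4:**
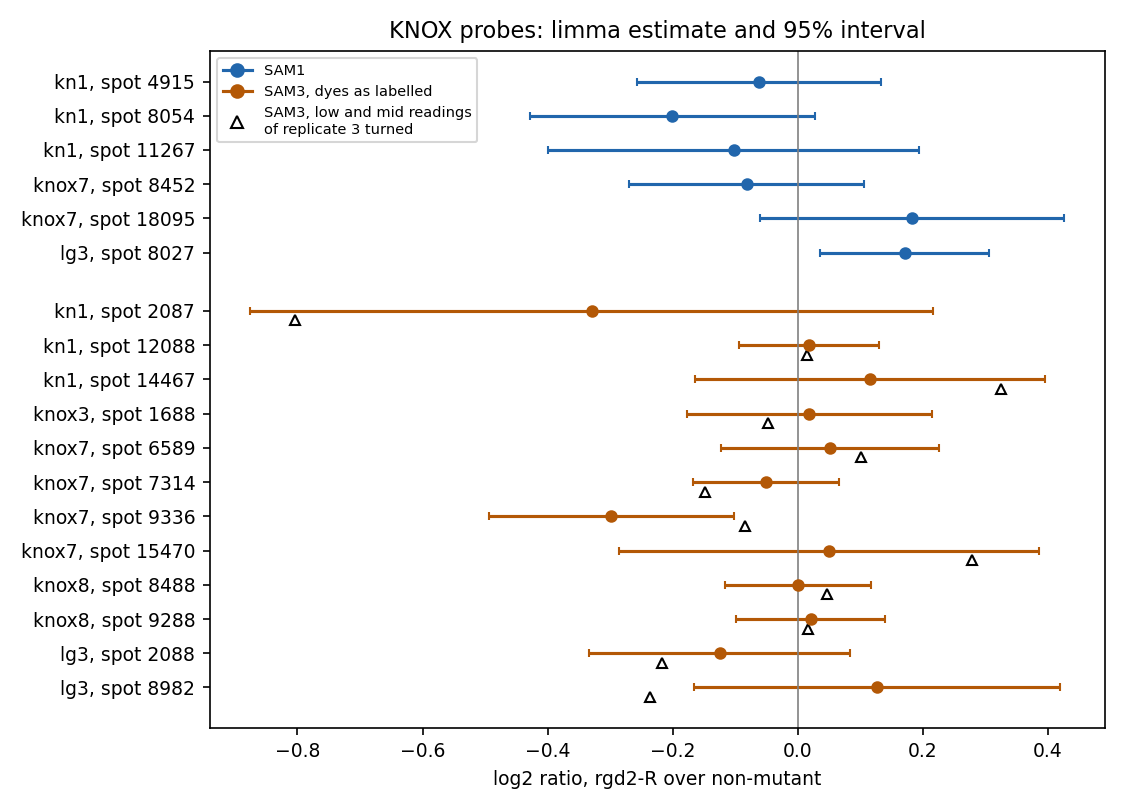
Limma estimate (points) and 95% interval (bars) of the log2 ratio of rgd2-R over non-mutant for the 18 KNOX spots on SAM1 and SAM3, with open triangles for SAM3 with the low and mid readings of replicate 3 turned. The intervals of lg3 spot 8027 and knox7 spot 9336 do not include 0, and kn1 spots 2087 and 14467 move apart to -0.80 and 0.33 when the readings are turned.

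The KNOX genes were also compared with each other within an array. Per-replicate ratios of each of 13 pairs (3 on SAM1, 10 on SAM3) were set against each other in an exact two-sided sign-flip permutation test, which with 6 replicates cannot give a p below 0.0312. On SAM1, kn1 lay below lg3 in 5 of 6 replicates, with a mean difference of -0.29 on the log2 scale (SD 0.28, exact p = 0.0625, adjusted p = 0.141 over the 3 pairs). kn1 lay below knox7 in 5 of 6 replicates as well, with a mean difference of -0.17 (SD 0.15, exact p = 0.0938, adjusted p = 0.141). On SAM3 all 10 pairs had an adjusted exact p of 1. No pair passed the threshold. After adjustment over the pairs of an array, a single pair at the smallest possible p could not have passed. The result therefore does not show that the genes behave alike. Across replicates kn1 and knox7 ratios correlated at 0.74 on SAM1 and -0.38 on SAM3, and kn1 and knox3 at 0.69 on SAM3, over 6 replicates that share arrays, with SAM3 replicate 3 as labelled.

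Genes around the KNOX family were counted from lists of known genes. Of regulators that keep KNOX genes off in leaves or set leaf polarity, 4 were named on each array, and 0 of 4 passed the adjusted limma test on either. rs2, the repressor of KNOX genes in leaves, had SAM1 ratios of 0.50, -0.18, 1.55, 0.25, 0.26 and 0.57 and an estimate of 0.49 (SE 0.20, adjusted p = 0.319 in limma). On SAM3 the rs2 ratios were -0.0043, -0.21, -0.14, 0.34, 0.28 and 0.51. They were below 0 where rgd2-R was in Cy3 and above 0 where it was in Cy5. The estimate was 0.13 (SE 0.06, adjusted p = 0.783 in limma), with 3 of 6 replicates above 0. It lay between 0.11 and 0.19 with readings of replicate 3 turned or without that replicate. lbl1 (leafbladeless1), which acts in the same small RNA pathway as ragged seedling2, was at -0.18 (SE 0.08, adjusted p = 0.339) on SAM1 and at 0.00 (SE 0.13) on SAM3, where turning the low and mid readings of replicate 3 gave -0.18 (adjusted p = 0.756). HB133, the current symbol of the gene matched as rld1, was at 0.07 on SAM1 and -0.04 on SAM3 (0.01 with that turn). AS2, matched as ig1, was at -0.05 on SAM3 (-0.11 with that turn and 0.0074 with the high reading turned).

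Of hormone genes downstream of or parallel to KNOX proteins, 6 were named on SAM1 and 9 on SAM3, and 0 passed the adjusted test. RR9, a cytokinin response regulator, had SAM1 ratios of -0.33, -0.17, -0.64, -0.51, -0.32 and -0.39. All 6 were below 0, as were those of 3.09% of named genes, with an estimate of -0.39 (SE 0.07, unadjusted p = 0.000752, adjusted p = 0.102 in limma). On SAM3 RR9 was at 0.06 (SE 0.06, adjusted p = 0.951), with 4 of 6 replicates above 0, and 0.02 with the low and mid readings of replicate 3 turned. The gibberellin biosynthesis gene an1 was at -0.13 (SE 0.06, adjusted p = 0.423) on SAM1 and RR5 at 0.05. On SAM3, RR8 was at 0.10 and the histidine kinase gene hk2 at 0.05. With that turn RR8 was at 0.14 and hk2 at 0.15, and with the high reading turned hk2 was at -0.0040. The medians of the list were -0.04 on SAM1 and 0.00 on SAM3, with 5 of 9 genes above 0 on SAM3. With the low and mid readings turned the SAM3 median was 0.15 with 8 of 9 above 0, with the high reading turned -0.01 with 3 of 9, and without replicate 3 0.04 with 6 of 9.

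Of WOX homeobox and meristem size genes, 2 were named on SAM1 and 3 on SAM3, and 0 passed. ns2 (narrow sheath2), which recruits cells at the leaf margin, was at 0.24 (SE 0.05, unadjusted p = 0.00203, adjusted p = 0.544 in limma) on SAM3. Its SAM3 ratios were 0.04, -0.01, -0.05, 0.45, 0.42 and 0.59, high where rgd2-R was in Cy5 and near 0 where it was in Cy3. On SAM1 it was at 0.34 (SE 0.24, adjusted p = 0.587), with 1.87 in replicate 3 and -0.07 to 0.28 in the others. wox13B was at -0.01 on SAM1 and 0.11 on SAM3, and ns1 at -0.01 on SAM3. Turning or leaving out replicate 3 moved ns2 on SAM3 only between 0.22 and 0.28, whereas with the low and mid readings turned wox13B was at -0.06 and ns1 at 0.23. With the high reading turned these were 0.17 and -0.13.

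Markers of other cell types were read beside the KNOX values, and 0 passed the adjusted limma test. Of all named genes, 50.9% had an estimate above 0 on SAM1 and 49% on SAM3. On SAM1 the estimates lay above 0 for 8 of 11 photosynthetic, 4 of 5 epidermal and 1 of 3 vascular markers, with medians of 0.02, 0.03 and -0.09. Their summed levels in non-mutant and rgd2-R were 3844 to 5290 and 3885 to 5818 (photosynthetic), 2347 to 2941 and 2650 to 3107 (epidermal), and 3007 to 4901 and 2880 to 4063 (vascular). On SAM3 the estimates lay above 0 for 6 of 7 leaf primordium, 4 of 6 photosynthetic, 4 of 5 epidermal and 1 of 2 vascular markers, with medians of 0.12, 0.01, 0.09 and -0.05. With the low and mid readings of replicate 3 turned these counts were 6 of 7, 3 of 6, 2 of 5 and 0 of 2, with the high reading turned 6 of 7, 6 of 6, 4 of 5 and 1 of 2, and without that replicate 7 of 7, 3 of 6, 4 of 5 and 0 of 2. No marker's median signal was at or below background. The epidermal genes with the smallest p were ocl4 at 0.21 on SAM1 (6 of 6 replicates above 0), brk1 at -0.28 on SAM3 (6 of 6 below) and dek1 at 0.25 on SAM3 (6 of 6 above), with adjusted p of 0.186, 0.561 and 0.568. With the low and mid readings of replicate 3 turned, brk1 was at -0.16 and dek1 at 0.08. All 6 replicates lay below 0 for 1.34% of the named genes of SAM3. No meristem marker other than the KNOX genes was named.

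The named genes most like each KNOX gene across the 6 replicate ratios were picked by Pearson's r among 580 genes on SAM1 and 593 on SAM3, with SAM3 replicate 3 as labelled. For kn1 these were eIF-5 (r = 0.98) and ohp1 (r = 0.95) on SAM1, and ATPase (r = 0.99) and gte102 (r = 0.98) on SAM3. For lg3 they were cat1 and fdx2 on SAM1, both at 0.99, and ubc7 (r = 0.97) and PIP2-1 (r = 0.91) on SAM3. For knox7 they were ESMT1 (r = 0.96) and rps6-2 (r = 0.90) on SAM1, and gst11 (r = 0.94) and cda1 (r = 0.92) on SAM3. knox3 was most like rop4 (r = 0.99) and NFY2 (r = 0.98), and knox8 most like MADS37 (r = 0.92) and aldh5 (r = 0.91). Removing the mean of each dye orientation left all of these between 0.91 and 0.99. With only 6 points that share arrays, r above 0.81 was reached by 5% of the genes compared with kn1 on SAM1, and no gene was picked for the same member on both arrays.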

How the data were processed

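Meristem RNA of rgd2-R and non-mutant maize was hybridised to 2 spotted 2-colour array designs, 6 replicates each, giving 36 samples (3 readings per replicate). The deposited intensity values are signal and local background per dye, uncorrected, per the file headers. The deposited natural log ratios were normalized by the authors with a method not given in the sources used here. Their base was read from slopes of 0.80 to 1.07 of the per-dye values on logged net signal. The authors' value table has non-mutant as the numerator throughout, by the dyes in the labels, with medians of -0.08 to 0.04. Its centring is unknown.

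Background was removed from mean signals by normexp (offset 50), and loess was applied to each array, in limma 3.58.1 (R 4.3.3). Ratios were turned to log2 of rgd2-R over non-mutant and averaged over readings. A genotype term and a dye term were fitted with lmFit and eBayes (4 residual degrees of freedom), with two-sided p-values and Benjamini-Hochberg adjustment over all rows. SE and 95% intervals are those of the model, and SDs are over replicates. Arrays were fitted apart. Spots of a gene were averaged, and unnamed spots stayed as rows of their own (17983 rows on SAM1, 15439 on SAM3). Levels are log2 intensities after Aquantile scaling, each array design apart. Control spots are not marked in the sources used here, and neither are slides or scans, so no such batch was fitted. The number of arrays limits the precision.

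Genes named are all members, up to 3 genes per list and array with the smallest p, and the 2 genes most like each member. The members and lists were chosen with earlier results of these data known. Gene names come from the platform annotation, updated through current identifiers, with 583 named genes on SAM1 and 598 on SAM3. A catalase gene that shares an alias with a meristem size gene was taken out by name. No sequence is printed because none was used here.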

Additional observations from a re-analysis of the deposited data

Results flagged for a closer look

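Of 8 KNOX gene profiles over 6 replicates, 3 had a replicate far from the others by Dixon's test at the 95% level, and of 18 spot profiles 1 did. Chance flags about 1 in 20 groups. kn1 on SAM1 had a ratio of 0.31 in replicate 2, with the others between -0.34 and -0.12. Its spot 11267 had 0.60 in the same replicate. knox7 on SAM3 had 0.27 in replicate 1, with the others between -0.17 and -0.07. knox8 on SAM3 had -0.051 in replicate 4, with the others between 0.0097 and 0.032, a gap within the range of a gene near background.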

How the results depend on the processing

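No KNOX gene or spot passed the adjusted threshold in limma under any alternative run. On SAM1, where 0 of all spots passed as reported, 195 passed with no background correction, 42 with the dimmest 25% left out, 36 with the mid reading only, 11 with median centring and 1 in the authors' value table, and leaving out a replicate gave 0 to 2. The 2 came without replicate 2. On SAM3, 2 of all spots passed with replicate 3 turned to run with replicate 1 and replicate 2 turned as well, and 0 in the other alternatives. The sign of kn1 and lg3 on SAM1 held throughout, with ranges of -0.32 to -0.06 and 0.14 to 0.47. Leaving out a replicate gave -0.21 to -0.08 for kn1, -0.0070 to 0.10 for knox7 and 0.14 to 0.21 for lg3 on SAM1, and -0.11 to 0.0012 for kn1 (the highest without replicate 1), -0.056 to 0.063 for knox3, -0.13 to -0.021 for knox7, 0.0040 to 0.025 for knox8 and -0.098 to 0.069 for lg3 on SAM3. Of the 160 comparisons of a member gene with its reported value, 34 had the opposite sign, and in all of these the adjusted p was above 0.05. Of the 34, 7 came from leaving out a replicate and lie within the ranges just given. The rest are listed here by gene. For knox7 on SAM1 they were -0.0083 with the mid reading only and -0.082 for spot 8452 alone. For knox3 they were -0.059 with no background correction, -0.00042 with median centring, -0.13 with the high reading only, -0.048 with the low and mid readings of replicate 3 turned and -0.20 with replicate 2 turned as well. For lg3 on SAM3 the same 5 settings gave -0.0091, -0.012, -0.25, -0.23 and -0.12, plain subtraction -0.14, the authors' value table -0.14 and spot 2088 alone -0.12. For kn1 on SAM3 they were 0.0086 with the low reading only, 0.010 as the median over spots, 0.019 for spot 12088 and 0.12 for spot 14467. For knox8 they were -0.014 with the low reading only, -0.0025 with the mid reading only and -0.013 with the high reading of replicate 3 turned. For knox7 on SAM3 they were 0.016 with the high reading only, 0.037 with the low and mid readings of replicate 3 turned, 0.077 with replicate 2 turned as well, 0.051 for spot 6589 alone and 0.050 for spot 15470 alone. With that last turn of replicates 2 and 3, kn1 was at -0.24 on SAM3 with 6 of 6 replicates below 0 (adjusted p = 0.201). The turned readings had run against replicate 1, so agreement in sign across replicates is partly built into this setting. Under it, 2664 of the 16000 SAM3 spots had an unadjusted p under 0.05 in limma, beside 1053 as reported. With plain subtraction and in the authors' value table, knox7 on SAM3 kept its sign at -0.51 and -0.47. Apart from the turned readings, the cause of these sign changes was not tested. knox8 has no value with the dimmest 25% left out, since both of its spots were removed. The pairs of KNOX genes were also recomputed under these alternatives, and the SAM3 list genes with replicate 3 turned or left out, both choices made after the data were seen, and 0 passed. For the pairs, the limit of the exact test given above still held. No paired analysis was possible because no block is left to add: both genotypes of a replicate share one array, and the reported fit of within-array ratios already pairs them.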
